A study of Mus musculus with 2 samples.

Results

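Of the 1905 mature miRNAs counted in mouse testis, 10 are described here, chosen by name. They were the 6 miRNAs of the miR-17 seed group (mmu-miR-17-5p, mmu-miR-20a-5p, mmu-miR-20b-5p, mmu-miR-93-5p, mmu-miR-106a-5p and mmu-miR-106b-5p), the related mmu-miR-18a-5p and mmu-miR-18b-5p, and the 3p arms mmu-miR-17-3p and mmu-miR-106b-3p. Measured values played no part in the rule that chose these 10 members, although earlier results of the same data were known. miR-18a-5p and miR-20b-5p had also been picked by the study from these same libraries, so that their values here are no independent evidence of their direction.

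The testes came from C57BL/6 mice (C57BL/6J in the study's methods) at postnatal day 60. Exposed mice had received the mixture of EDCs (endocrine disruptor compounds), which held 3 phthalates (DEHP, DBP and BBP, plasticisers) and 2 alkylphenols (NP and OP, breakdown products of detergents), in the drinking water of the mother from post-coital day 0.5 and then in their own. Per kg of body weight a day, the intended amount was 0.3 mg of any phthalate and 0.05 mg of either alkylphenol. Control mice had received water with the vehicles, DMSO and ethanol, over the same period. RNA was pooled within each group (n = 3 by the study's methods, which count pregnant mothers). Each pool gave 1 library of small RNA, 1 for exposed and 1 for control mice. The difference between mice therefore cannot be seen in these libraries, and no value from them has a replicate check.

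miRNAs are short RNAs that guide Argonaute to mRNAs, mainly through the seed, the bases near their 5′ end that pair with the target. The cluster of miR-17 to miR-92a, here the Mir17hg cluster after its host gene, is transcribed as 1 primary RNA, is activated by Myc and is known as an oncogenic cluster, and the seed group it shares with its copies represses the cell cycle inhibitor p21, the pro-apoptotic Bim and the transcription factor E2f1. In the mouse testis the cluster and its copy miR-106b-25 are known from spermatogonia, and miR-18 is known to repress Hsf2, a transcription factor of spermatogenesis.

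The seed group is defined by bases 2 to 8, and these sequences are printed because members that differ at so few bases can take each other's reads. All 10 members had an entry in the RefSeq table (GRCm38.p6), and the seed is in capitals. The 6 members with the miR-17 seed, AAAGUGC, read as follows.
mmu-miR-17-5p: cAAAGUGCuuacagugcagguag
mmu-miR-20a-5p: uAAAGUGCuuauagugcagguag
mmu-miR-20b-5p: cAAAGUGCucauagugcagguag
mmu-miR-93-5p: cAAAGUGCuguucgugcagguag
mmu-miR-106a-5p: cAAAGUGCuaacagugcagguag
mmu-miR-106b-5p: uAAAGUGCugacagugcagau

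Both miR-18 members carried another seed, AAGGUGC, which differs from that of miR-17-5p by A4G (positions counted from 1 at the 5′ end, the base of miR-17-5p first).
mmu-miR-18a-5p: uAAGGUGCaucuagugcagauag
mmu-miR-18b-5p: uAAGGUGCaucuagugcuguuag

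The 3p members come from the other side of their hairpins and share neither seed.
mmu-miR-17-3p: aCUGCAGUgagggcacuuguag
mmu-miR-106b-3p: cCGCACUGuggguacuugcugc

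Of the 15 pairs among the 6 seed members, 10 differed at no more than 3 bases. The closest pair was miR-17-5p and miR-106a-5p, which differ by U10A alone. miR-18b-5p differs from miR-18a-5p by A18U and A20U and shares an unbroken run of 17 bases with it. The reads had been aligned with up to 3 mismatches, keeping all alignments of the best kind, so the split of reads between such members is uncertain, most of all for the rare ones. A sum over the seed group does not depend on how reads were divided between members, provided each read was counted once. The files do not settle whether it was: no read was listed as not unique, and a read counted at 2 members would enter the sum at each of them. The RefSeq table held 1 more mature miRNA with the miR-17 seed, miR-6383, which had 0 reads in both libraries.

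The members lie in 3 clusters (GRCm38, the build named mm10). The Mir17hg cluster, with the hairpins of miR-17, miR-18a and miR-20a among its 6, spans chr14:115043671-115044506 on the plus strand and lies in an exon of the noncoding host gene Mir17hg. The miR-106a-363 cluster, with miR-106a, miR-18b and miR-20b among its 6 hairpins, spans chrX:52741693-52742567 on the minus strand, and no host gene was annotated there. The miR-106b-25 cluster, with the hairpins of miR-106b, miR-93 and miR-25, spans chr5:138165321-138165818 on the minus strand inside Mcm7, a subunit of the replicative helicase. The hairpin of miR-106b was intronic in both Mcm7 transcripts that cover it, whereas those of miR-93 and miR-25 fell in an exon of 1 of the 3 transcripts covering each.

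The library of exposed mice held 501539 reads on mature miRNAs and the control library 550261, on 760 and 771 miRNAs. Counts were divided by size factors of 0.937 for exposed and 1.07 for control mice. The 484 miRNAs that reached 10 reads over the libraries combined were compared by a 2-sided exact binomial test with Benjamini-Hochberg adjustment over all of them. A miRNA is said to have fallen or risen where the adjusted p was under 0.05 and the log2 ratio (exposed over control) at least 0.5 in size. It is called lower or higher at any size where the adjusted p alone passed. Such a test sets 1 library against the other and not the conditions. Its 95% intervals (Clopper-Pearson) cover counting error only, and PCR copies counted as reads can make them too narrow even for that. At 10 reads in each library the interval of a log2 ratio reaches 1.42 to either side, at 100 reads 0.41 and at 1000 reads 0.13. The testis identity of both libraries was plain from 7 miRNAs of meiotic and later germ cells, which took 22.7% of the reads in exposed and 22.7% in control mice.

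Members of the group spanned a wide range of levels, from among the most abundant miRNAs of the testis to a few reads. miR-20a-5p was the most abundant in both libraries, with 3675 reads in exposed and 5174 in control mice, 0.733% and 0.940% of all reads, and rank 33 and 30 among all miRNAs. miR-93-5p followed with 1932 and 2746 reads (rank 53 and 44) and miR-17-5p with 1255 and 1878 reads (rank 68 and 62). These 3 members were separated from each other and from the rest by more than their counting intervals in either library. Reads of different miRNAs are not strictly comparable as molecules, because adapters join some ends more readily than others.

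The middle of the order was held by miR-106b-3p, miR-18a-5p, miR-106b-5p and miR-17-3p. miR-106b-3p had 356 reads in exposed and 453 in control mice. miR-18a-5p (131 and 219 reads) and miR-106b-5p (126 and 180 reads) had overlapping intervals in each library, with 0.0218% to 0.0310% against 0.0209% to 0.0299% of reads in exposed mice and 0.0347% to 0.0454% against 0.0281% to 0.0379% in control mice. Their order was therefore not resolved. miR-17-3p, the less abundant arm of its hairpin, had 56 reads in exposed and 81 in control mice.

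The 3 members of the X-linked cluster were close to the detection limit. miR-20b-5p had 9 reads in exposed and 25 in control mice, miR-106a-5p had 9 and 9, and miR-18b-5p had 0 and 2. A count of 0 allows a share of up to 0.000598% of the reads in exposed mice, above the 0.000363% measured for miR-18b-5p in control mice, so that a loss of miR-18b-5p was not detectable at this depth. In exposed mice the intervals of miR-20b-5p and miR-106a-5p coincided, and in control mice they overlapped (0.00294% to 0.00671% for miR-20b-5p and 0.000748% to 0.00310% for miR-106a-5p).

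**Figure D1:**
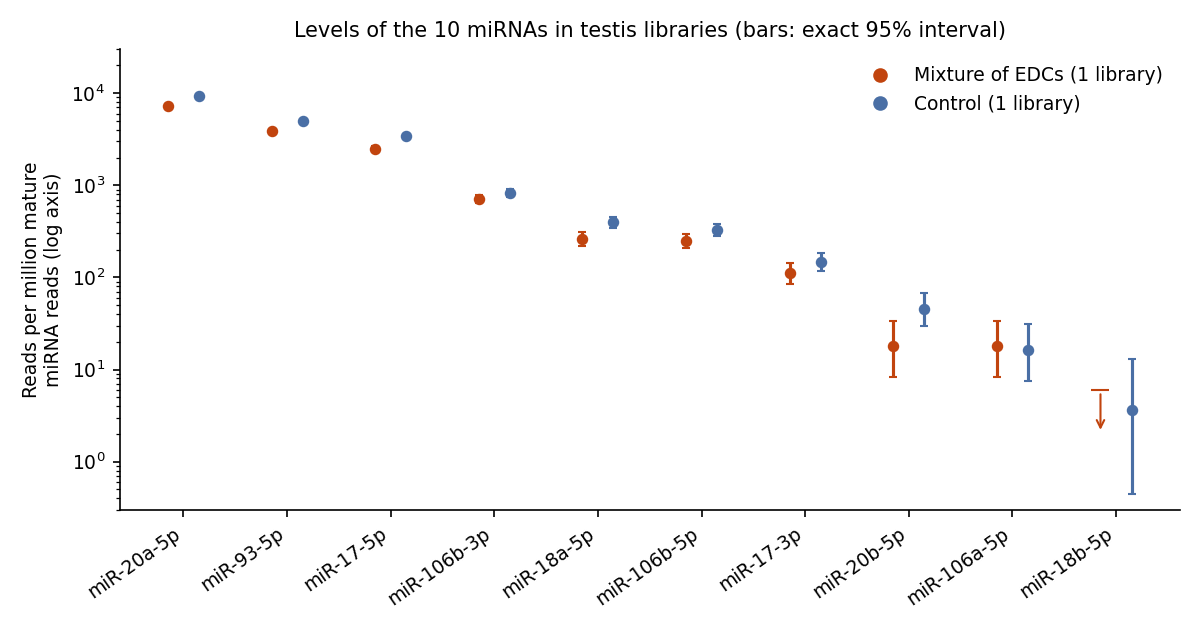
Level of the 10 members, in RPM (reads per 1e6 mature miRNA reads, log axis), in exposed mice (mixture of EDCs, orange, left of each pair) and control mice (blue), 1 library each, with the exact 95% counting interval of each share. The arrow at miR-18b-5p marks the limit that 0 reads allow. Levels run from 7327 and 9403 RPM for miR-20a-5p down to 17.9 and 16.4 for miR-106a-5p and 0 and 3.63 for miR-18b-5p.

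Of the 10 members 9 could be tested, and miR-18b-5p had too few reads. Of these 9, 1 fell (miR-18a-5p) and 0 rose, where 2.27% of all 484 miRNAs fell and 0.62% rose. At any size 4 of the 9 were lower (miR-17-5p, miR-18a-5p, miR-20a-5p and miR-93-5p) and 0 were higher, where 9.3% of all miRNAs tested were lower and 8.26% higher. Those 4 include the 3 most abundant members, and the test finds smaller differences in abundant miRNAs. The log2 ratio of 8 of the 9 lay below 0, against 54.3% of all miRNAs tested, and their median was −0.33, against −0.04 over all tested. Because the members share transcripts and sequence, these 9 are not 9 separate observations.

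Among the seed group the 3 abundant members were lower in exposed mice by similar amounts. After scaling, miR-20a-5p had 3920 reads in exposed and 4850 in control mice, a log2 ratio of −0.31 (95% interval −0.37 to −0.25, adjusted p = 1.12e-21 by the exact binomial test). miR-93-5p had 2061 and 2574 scaled reads, a log2 ratio of −0.32 (−0.41 to −0.24, adjusted p = 8.94e-13, exact binomial test). miR-17-5p, which gives the seed group its name, had 1339 and 1760 scaled reads, a log2 ratio of −0.39 (−0.50 to −0.29, adjusted p = 7.61e-13, exact binomial test). Their 3 intervals overlapped, and all of them ended short of −0.5, the size needed for a fall, or at its edge.

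The rarer members of the seed group did not pass the test. miR-106b-5p, processed from the intron of Mcm7, had 134 scaled reads in exposed and 169 in control mice, a log2 ratio of −0.33 (−0.67 to 0.01, adjusted p = 0.182, exact binomial test). miR-20b-5p had 9.60 and 23.4 scaled reads and a log2 ratio of −1.29 (−2.57 to −0.14), which missed the threshold after adjustment (p = 0.0240, adjusted p = 0.108, exact binomial test). Its ratio rests on 34 reads in all, and its interval takes in the values of the 3 abundant members. miR-106a-5p was the only tested member above 0, with 9.60 and 8.44 scaled reads and a log2 ratio of 0.19 (−1.32 to 1.69, adjusted p = 0.942, exact binomial test).

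Summed over the 6 seed members, exposed mice had 7006 reads and control mice 10012, which made up 1.40% and 1.82% of each library. The log2 ratio of the sum was −0.33 (−0.37 to −0.28), a level of 0.796 of that in control mice. Without miR-20a-5p, the deepest member, it was −0.35 (−0.42 to −0.29). No p is given for a sum over chosen members.

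What the seed group was made of hardly differed between the libraries. miR-20a-5p supplied 52.5% of its reads in exposed and 51.7% in control mice, miR-93-5p 27.6% and 27.4%, miR-17-5p 17.9% and 18.8%, and miR-106b-5p 1.80% and 1.80%. By locus, the members on chromosome 14 supplied 70.4% in exposed and 70.4% in control mice, those on chromosome 5 29.4% and 29.2%, and those on the X chromosome 0.257% and 0.340%. The counting intervals of the shares overlapped in each case, among them 0.152% to 0.406% in exposed and 0.235% to 0.474% in control mice for the X chromosome. The reads of the 2 autosomal loci gave nearly the same log2 ratio, −0.33 (−0.38 to −0.28) for chromosome 14 and −0.32 (−0.40 to −0.24) for chromosome 5. They are separate transcription units with different hosts, and the cause of this likeness was not tested.

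miR-18a-5p, which stands second in the Mir17hg primary transcript, was the single member that fell. It had 131 reads in exposed and 219 in control mice, or 140 and 205 after scaling, a level of 0.681 (0.544 to 0.849) of that in control mice. Its log2 ratio was −0.55 (−0.88 to −0.24, adjusted p = 0.0041 by the exact binomial test), just past the size minimum, with an interval that takes in the values of miR-17-5p, miR-20a-5p and miR-93-5p. The adjusted p ran between 0.00119 and 0.00735 over the other scalings and read minimums. It was 0.985 (unadjusted p = 0.0668) in edgeR's exact test, which takes a spread estimated from these libraries as well as counting error and passed 0 members, or 0 of the 484 miRNAs. At an unadjusted p of at most 0.05 that test passed 18 of the 484 and 0 members. The spread in edgeR's test was estimated with both libraries as a single group, so any difference between exposed and control mice counted as spread. The test can therefore pass too few miRNAs. With miR-18b-5p added, the sum was 131 reads in exposed and 221 in control mice and the log2 ratio −0.57 (−0.89 to −0.25).

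**Figure D2:**
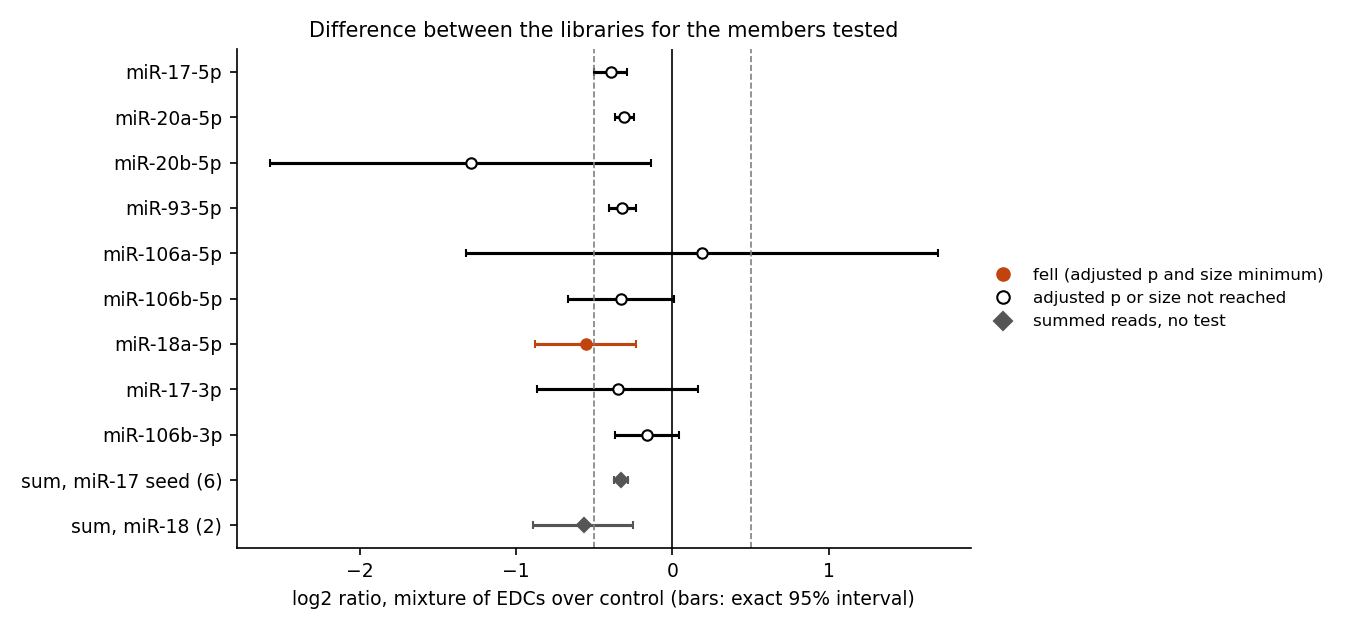
log2 ratio of exposed (mixture of EDCs) over control mice for the 9 tested members (circles) and for the summed reads of the 6 seed members and of both miR-18 members (diamonds), with exact 95% counting intervals and dashed lines at a size of 0.5. miR-18a-5p, in orange, is the member that fell, and its interval overlaps those of miR-17-5p, miR-20a-5p and miR-93-5p.

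Set among all miRNAs of at least 50 reads, the members lay in the lower part of the spread. Over these 317 tested miRNAs the log2 ratios had an SD of 0.29 about a median of −0.03, with a lower quartile of −0.23. The 7 members with that many reads were all below 0, from −0.55 to −0.16. Below miR-18a-5p lay 16 of the 317 miRNAs, below miR-17-5p 31, below miR-93-5p 46 and below miR-20a-5p 48. The spread was narrower at the depth of miR-17-5p, miR-20a-5p and miR-93-5p, with an SD of 0.23 about a median of −0.03 over the 117 miRNAs with 1000 reads or more. Outside the 3 clusters, the miRNAs nearest to miR-18a-5p in log2 ratio, with at least 100 reads, were miR-33-5p (44 and 74 reads, −0.56), miR-15b-5p (754 and 1270 reads, −0.57) and miR-465a-3p (841 and 1368 reads, −0.52). miR-15b-5p and miR-465a-3p fell too, with adjusted p = 1.36e-16 and 3.64e-15 in the exact binomial test, whereas miR-33-5p did not pass (adjusted p = 0.164). This likeness is over 2 libraries only.

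**Figure D3:**
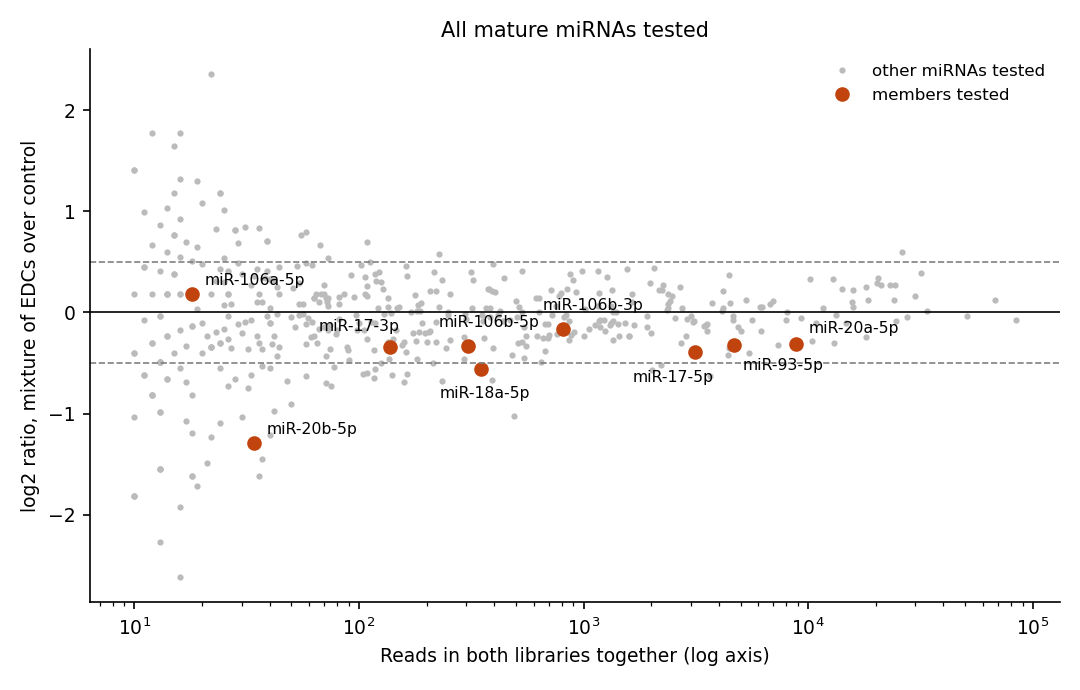
log2 ratio of exposed (mixture of EDCs) over control mice against the reads in both libraries together (log axis) for the 484 miRNAs tested, with members in orange and dashed lines at a size of 0.5. The spread narrows as reads increase, and 8 of the 9 members lie below 0, at a median of −0.33.

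Ratios between members of 1 transcript or hairpin need no scaling, and 8 such pairs were compared without a test. In exposed mice there were 9.58 reads of miR-17-5p for each read of miR-18a-5p, and in control mice 8.58. The ratio of miR-18a-5p to miR-17-5p was thus 0.895 times as high in exposed as in control mice (95% interval 0.707 to 1.13), and that of miR-18a-5p to miR-20a-5p 0.842 times (0.670 to 1.06). Both intervals include 1 and are wide on either side of it, so neither a difference from them nor a likeness to them was resolved. Against all 6 seed members together the value was 0.855 (0.682 to 1.07), a comparison added after the data were seen.

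The other pairs were as even or less well measured. The ratio of miR-20a-5p to miR-17-5p was 1.06 times as high in exposed as in control mice (0.977 to 1.16), and that of miR-106b-5p to miR-93-5p, neighbours in Mcm7, 0.995 times (0.780 to 1.27). For miR-20b-5p to miR-106a-5p it was 0.36 (0.0924 to 1.41), from 9 reads each in exposed mice, against 25 and 9 in control mice. For miR-18b-5p to miR-106a-5p the upper bound was 6.47, so this pair was not informative. In all 8 pairs the interval included 1.

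Against the summed reads of all other miRNAs of the cluster, the intervals of some members lay below 1. miR-18a-5p had a ratio of 0.790 (0.630 to 0.987), miR-20a-5p 0.912 (0.866 to 0.961) and miR-20b-5p 0.445 (0.183 to 0.987). The rest of the clusters on chromosome 14 and the X chromosome includes miR-92a-3p (4854 reads in exposed and 5936 in control mice) and miR-19b-3p (868 and 1136). Both are encoded in both clusters, so their reads cannot be assigned to either. All single-hairpin miRNAs of the X-linked cluster had 24 and 47 reads, so miR-20b-5p was set mainly against reads of uncertain origin. Against the other seed members, miR-20a-5p had 1.03 (0.970 to 1.10) and miR-20b-5p 0.514 (0.211 to 1.14). Both intervals include 1, in a comparison also added after the data were seen.

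**Figure D4:**
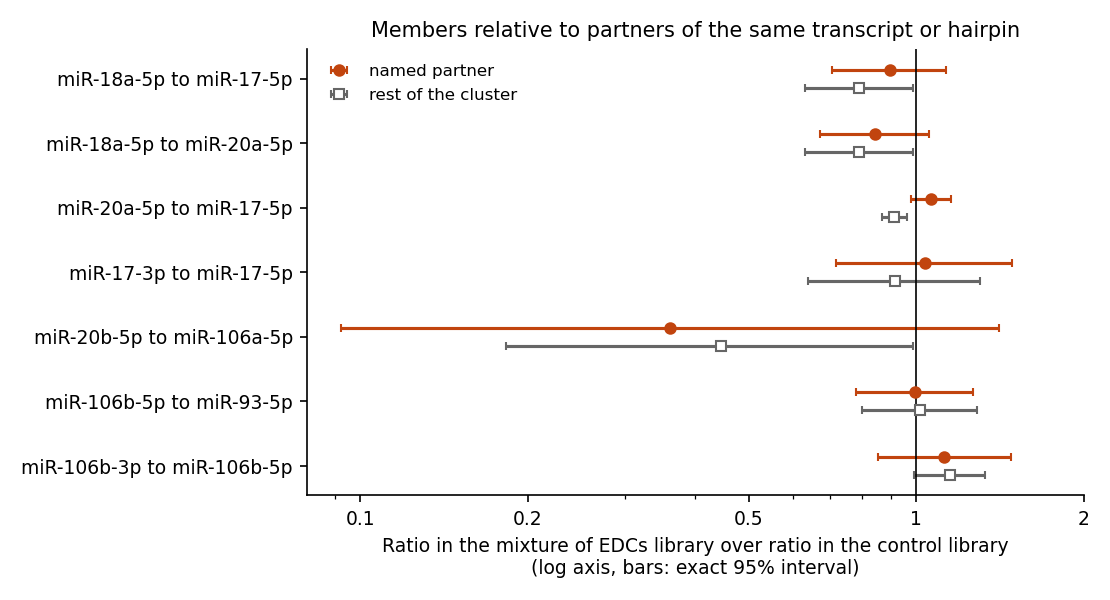
Ratio of a member to its partner in exposed mice (mixture of EDCs) over the same ratio in control mice (log axis), with exact 95% intervals, for the named partner (orange circles) and the rest of the cluster (grey squares). miR-18b-5p, with 0 reads in exposed mice, is not drawn. Every interval for a named partner includes 1, while those of miR-18a-5p, miR-20a-5p and miR-20b-5p against the rest of the cluster lie below it.

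The use of the 2 arms of a hairpin was also compared, since 1 arm is usually kept by Argonaute and the other lost. The hairpin of miR-106b is printed because it was the only one of the 8 hairpins of the members from which the 3p arm gave more reads. Both mature arms are in capitals, the 5p arm first.
mir-106b: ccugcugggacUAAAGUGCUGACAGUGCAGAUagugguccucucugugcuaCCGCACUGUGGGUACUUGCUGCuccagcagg

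From this hairpin 26.1% of the reads in exposed mice (22.3% to 30.3%) and 28.4% in control mice (24.95% to 32.1%) came from the 5p arm, which carries the miR-17 seed. The 3p arm, miR-106b-3p, had 380 scaled reads in exposed and 425 in control mice, a log2 ratio of −0.16 (−0.37 to 0.04, adjusted p = 0.309, exact binomial test). There were 2.83 reads of it for each read of miR-106b-5p in exposed mice and 2.52 in control mice, a ratio of 1.12 (0.853 to 1.48). A change in the use of the arms was therefore not detectable.

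The hairpin of miR-17 was used the other way round. Its 5p arm gave 95.7% of the reads in exposed mice (94.5% to 96.8%) and 95.9% in control mice (94.9% to 96.7%). miR-17-3p had 59.7 scaled reads in exposed and 75.9 in control mice, a log2 ratio of −0.35 (−0.86 to 0.16, adjusted p = 0.394, exact binomial test), and its ratio to miR-17-5p was 1.03 (0.717 to 1.48). The share of the 5p arm was 92.9% in exposed and 94.0% in control mice for miR-18a, 99.4% and 99.2% for miR-93, and 99.9% and 99.9% for miR-20a. No read of a 3p arm was counted from the 3 X-linked hairpins.

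The other mature miRNAs of the 3 clusters numbered 18, of which 5 had no read and 9 could be tested. None of the 9 rose or fell, 3 were lower at any size, and their median log2 ratio was −0.20, against −0.33 for the members and −0.04 over all tested. miR-25-3p, from the same host as miR-93-5p, had 2183 reads in exposed and 3276 in control mice, a level of 0.758 of that in control mice. The other miRNAs lower at any size, miR-19b-3p (868 and 1136 reads, 0.870) and miR-92a-3p (0.931), each have 2 hairpins, so their p-values may be too small. The other 6 did not pass. With at least 50 reads these were miR-19a-3p, which lies between miR-18a and miR-20a (0.980), miR-92a-1-5p (0.957) and miR-25-5p (0.937), and with fewer reads miR-363-3p (0.854), miR-18a-3p (0.813) and miR-93-3p (0.596, from 11 reads in exposed and 21 in control mice).

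Taking the miRNAs that come from a single hairpin, the summed log2 ratio was −0.32 (−0.37 to −0.27) for the Mir17hg cluster and −0.35 (−0.40 to −0.29) for the miR-106b-25 cluster. For the miR-106a-363 cluster it was −0.78 (−1.56 to −0.04), from 24 reads in exposed and 47 in control mice, and its interval holds the values of both other clusters. Most of the Mir17hg sum came from its 4 members, with 5117 of 5510 reads in exposed and 7352 of 7810 in control mice. It leaves out miR-92a-3p (log2 ratio −0.10) and miR-19b-3p (−0.20), and so does not stand for the whole cluster. No test of the difference between clusters was made.

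**Figure D5:**
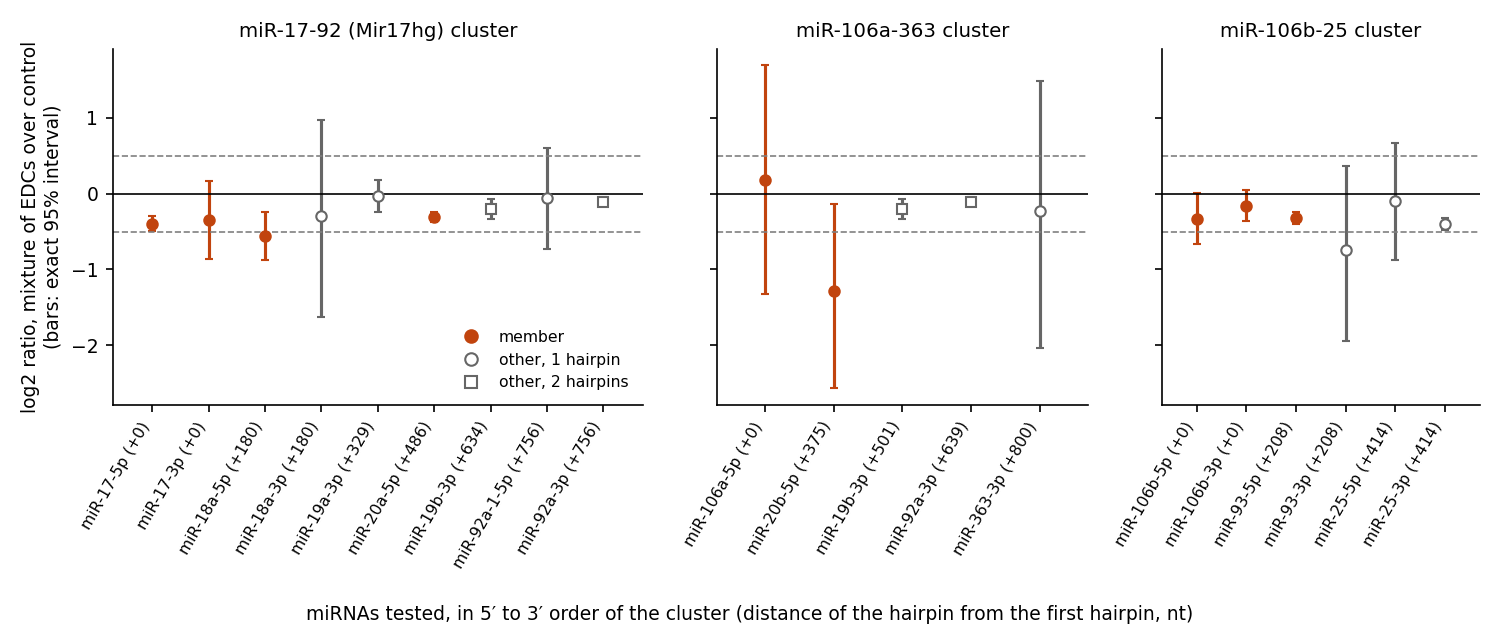
log2 ratio of exposed (mixture of EDCs) over control mice, with exact 95% counting intervals, for each tested miRNA of the 3 clusters in 5′ to 3′ order, with the distance of its hairpin from the first in nucleotides and dashed lines at a size of 0.5. Members are orange, other miRNAs of 1 hairpin are open circles and those of 2 hairpins, drawn in both clusters that encode them, are open squares. Within the Mir17hg cluster the values run from −0.55 for miR-18a-5p to −0.03 for miR-19a-3p.

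In whole testis, fewer cells of a type and less of a miRNA per cell cannot be told apart. Markers of 9 of the 10 cell types listed reached 100 reads over the libraries combined. Their summed log2 ratios ran from −0.16 for endothelium to 0.33 for striated muscle, against −0.33 for the seed group. A sum weighs each marker by its reads, and single markers, even the most abundant of a list, differed from it. In striated muscle miR-1a-3p was higher at any size (842 reads in exposed and 712 in control mice, log2 ratio 0.43). By contrast, miR-133a-3p fell (56 and 103 reads, −0.69, adjusted p = 0.0253, exact binomial test). Each of these muscle miRNAs has 2 hairpins. Of the white blood cell markers 4 of 5 lay below 0 (median −0.18, sum −0.07) and of the epithelium markers 3 of 5 (median −0.15, sum 0.01), and 0 of these 10 rose or fell. Among them miR-150-5p was at −0.97 (13 reads in exposed and 29 in control mice), miR-200c-3p at −0.46 (53 and 83 reads) and miR-155-5p at −0.43 (17 and 26 reads). The most abundant marker of each of these lists lay above 0, miR-142a-5p at 0.21 (111 and 109 reads) and miR-200a-3p at 0.18 (818 and 821 reads). So did miR-141-3p at 0.19 (8 and 8 reads). The 7 germ cell miRNAs gave 0.06, with 1 of them risen and 0 fallen. miR-34b-5p was the one that rose (14881 reads in exposed and 11198 in control mice, 0.60). The most abundant, miR-34c-5p, lay at −0.08 (38088 and 45779 reads). At any size 3 of the 7 were higher and 3 lower. The 4 miRNAs of spermatogonia gave 0.07 (0.02 to 0.11), with 0 risen or fallen. That sum was carried by miR-21a-5p (7589 reads in exposed and 8305 in control mice). Of the 4, 3 lay above 0 and miR-221-3p at −0.20 (89 and 116 reads). The 2 miRNAs of Sertoli and other somatic gonad cells gave 0.18. Within the endothelium list, miR-126a-3p was lower at any size (2701 and 3482 reads), and miR-126a-5p lay at 0.06 (247 and 270 reads). The liver miRNA miR-122-5p had 1 read in exposed and 0 in control mice, and the muscle miRNA miR-206-3p had none. The part of any cell type in the values of the members was not tested.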

How the data were processed

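RNA from testes was pooled by group, and 1.5 µg (RIN above 9) per pool was made into a small RNA library and read on a MiSeq (single-end, 65 nt). The authors checked quality with FastQC, trimmed adapters with cutadapt, dropped reads under 12 nt, aligned to mm10 with Bowtie (at most 3 mismatches, all best alignments) and counted with HTSeq on miRBase v21; they used DESeq for their own comparison. Which versions they ran is not given in the sources used here. The deposited values are raw counts of reads per mature miRNA. Lines of ambiguous reads (0.515% in exposed and 0.528% in control mice) were left out, and no read was listed as not unique.

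Here, counts were scaled by the median of ratios and compared as described above. edgeR's quasi-likelihood test could not be fitted, having no residual degrees of freedom. All 10 members were named, with other miRNAs of the clusters from 50 reads, those sharing a seed, and the 3 miRNAs nearest to miR-18a-5p from 100 reads. Marker miRNAs are named as examples after their values were seen. Members and lists were chosen with earlier results of these data known. Alternatives were scaling by TMM, by total reads, or by that total less the 10 most abundant miRNAs, no filter or one of 50 reads, a pseudocount of 0.5, a size minimum of 1.0 or none, edgeR's exact test with 1 dispersion over both libraries, sums without the deepest member, and other partners for ratios. The tests were checked on simulated counts drawn with counting error alone. That check says nothing about the spread between mice or between libraries. Hairpins came from RefSeq (GRCm38.p6) and hosts from GENCODE M21 of the same build. Tools were R 4.3.3, edgeR 4.0.16, Python 3.11.15, scipy 1.17.1, numpy 2.4.6, matplotlib 3.10.9 and pandas 2.3.3.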

Additional observations from a re-analysis of the deposited data

How the results depend on the processing

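The count of 1 member fallen was the same under the other scalings and read minimums. It was 4 with no size minimum (miR-17-5p, miR-18a-5p, miR-20a-5p and miR-93-5p), 0 with a size minimum of 1.0, which miR-18a-5p does not reach, and 0 in edgeR's exact test at either an unadjusted or an adjusted p, which takes a wider error. The summed seed group gave −0.38 with scaling by total reads, against −0.33, and its whole interval stayed below 0 in each scaling. Over all miRNAs, 11 fell and 3 rose, against 17 and 3 with total reads, 45 and 40 with no size minimum, 4 and 1 with a minimum of 1.0, and 13 and 5 (unadjusted) or 0 and 0 (adjusted) in edgeR's exact test. The ratio of miR-20a-5p was 1.06 to miR-17-5p and 0.912 to the rest of its cluster, where miR-92a-3p weighs most. Of 85 alternatives over all results, 79 left the direction and the call in place, or the value within its error, and 0 reversed a called value. That tally overstates how much was checked. The count of members risen was 0 in each setting, and the interval of miR-18b-5p to miR-106a-5p (0 to 6.47) leaves little room to move. Both pairs of miR-18a-5p list the same values against the rest of the cluster and against the seed group. The seed group comparisons were added after the data were seen. No pair could count as reversed, since the main interval of every pair included 1. Against the rest of the cluster, the intervals of miR-18a-5p, miR-20a-5p and miR-20b-5p lay below 1. All 36 values of tested members under other scalings or the pseudocount lay on the same side of 0. Each scaling shifted all log2 ratios by the same amount, smaller than the value of any member, so no sign could change there. The sum of miR-18 members without the deepest had 0 reads in exposed mice and gave no value. No paired analysis was possible because each group has 1 library, and for the same reason no library could be left out. Depth limits miR-20b-5p, miR-106a-5p and miR-18b-5p most, and these libraries give no spread between mice for any member. The study also measured miR-18a-5p by RT-qPCR and reported a decrease there too, which was not examined here.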
